A study of Mus musculus with 6 samples.

Results

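The kinesin motor family was examined in spleens of female mice of the NOD strain, which is prone to autoimmune diabetes, after treatment with the mitochondrial-derived peptide MOTS-c or a scrambled MOTS-c peptide as vehicle. Members were the genes whose probes carry a symbol beginning with Kif followed by a digit or the letter c, including probes too dim to enter the deposited table of fold changes. The rule gave 43 genes with 89 probes, against 56605 probes on the array. Of the 43, 12 were grouped as mitotic kinesins (Kif4, Kif11, Kif14, Kif15, Kif18a, Kif18b, Kif20a, Kif20b, Kif22, Kif23, Kif2c and Kifc1), 30 as other kinesins and 1, Kif4-ps, is a pseudogene. One member among the others, Kifbp, was caught by its older symbol Kif1bp and encodes a kinesin-binding protein, not a motor. Cenpe and Kif28, which are kinesins under other symbols on this array, fell outside the rule.

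Treatment began at 6 weeks of age, with animals injected intraperitoneally every day. The MOTS-c group received 0.5 mg/kg/day. The vehicle group received the scrambled peptide, so both groups shared strain, sex, injections and an overnight fast of 16 to 18 h before the spleens were taken at 18 weeks of age. Each group had 3 arrays, read in 1 colour (Cy3). Nothing in the labels states that each array stands for a mouse of its own, and the p-values therefore reflect the spread among these arrays alone, which may be technical.

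Kinesins are motor proteins that use ATP to walk along microtubules or to take their ends apart. One set works in the mitotic spindle, where its members separate the poles, position chromosomes and build the midzone at which the cell is cleaved; these genes are switched on late in the cell cycle and are repressed in resting cells. The rest carry vesicles, organelles and ciliary components in cells that need not divide. In the adult mouse spleen, dividing cells include red cell precursors and activated lymphocytes, while most lymphocytes are at rest.

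Genes that act in mitosis often carry a short element near their start, the cell cycle genes homology region, whose usual letters are TTTGAA, and CCAAT boxes upstream of it. RefSeq start sites (GRCm38.p6) with their promoter sequence were matched for 11 mitotic and 23 other kinesins. The stretches below run from 100 bases before the annotated start to 30 bases from it, read 5′ to 3′ on the gene's strand. Shown are 7 of the 8 mitotic kinesins that hold TTTGAA within 30 bases of the start, chosen for that match, Kif18a, the mitotic kinesin with none in the window searched, and Kif24, the other kinesin whose groups separated downward. Kif20b, which also holds it near the start, and Kif14 and Kif2c, which hold it only farther upstream, are not shown. Capitals mark TTTGAA (or TTCAAA, its reverse complement), TTCGAA, and CCAAT (or ATTGG, its reverse complement).
Kif22: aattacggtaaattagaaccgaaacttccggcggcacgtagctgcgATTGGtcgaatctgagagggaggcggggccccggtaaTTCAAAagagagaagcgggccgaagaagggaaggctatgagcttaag
Kif4: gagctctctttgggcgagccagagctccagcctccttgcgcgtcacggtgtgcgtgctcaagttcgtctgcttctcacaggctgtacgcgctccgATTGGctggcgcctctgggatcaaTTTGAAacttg
Kif18b: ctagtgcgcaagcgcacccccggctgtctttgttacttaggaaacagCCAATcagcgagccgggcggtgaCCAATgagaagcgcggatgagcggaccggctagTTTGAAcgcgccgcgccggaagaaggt
Kif15: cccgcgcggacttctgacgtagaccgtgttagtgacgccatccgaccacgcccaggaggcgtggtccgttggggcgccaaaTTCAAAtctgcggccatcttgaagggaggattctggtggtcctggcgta
Kif11: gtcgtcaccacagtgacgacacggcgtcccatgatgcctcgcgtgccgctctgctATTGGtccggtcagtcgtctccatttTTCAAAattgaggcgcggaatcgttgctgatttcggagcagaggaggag
Kif23: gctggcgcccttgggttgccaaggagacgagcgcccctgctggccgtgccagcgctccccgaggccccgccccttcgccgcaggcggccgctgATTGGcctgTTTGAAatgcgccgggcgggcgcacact
Kifc1: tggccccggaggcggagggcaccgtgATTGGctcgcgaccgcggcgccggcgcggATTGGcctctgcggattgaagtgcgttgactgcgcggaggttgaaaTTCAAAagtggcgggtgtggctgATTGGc
Kif18a: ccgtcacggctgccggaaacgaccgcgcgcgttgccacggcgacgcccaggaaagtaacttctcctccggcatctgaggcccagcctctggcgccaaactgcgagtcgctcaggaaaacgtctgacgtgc
Kif24: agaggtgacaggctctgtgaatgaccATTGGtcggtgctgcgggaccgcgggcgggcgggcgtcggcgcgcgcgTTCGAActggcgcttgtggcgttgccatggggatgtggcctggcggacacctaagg

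The stretch of Kif22 lies at chr7:127042391-127042520 on the minus strand, that of Kif4 at chrX:100625965-100626094 on the plus strand and that of Kif18b at chr11:102925095-102925224 on the minus strand. Kif15 is at chr9:122950981-122951110 on the plus strand, Kif11 at chr19:37376282-37376411 on the plus strand and Kif23 at chr9:61946770-61946899 on the minus strand. Kifc1 is at chr17:33890604-33890733 on the minus strand, Kif18a at chr2:109280638-109280767 on the plus strand, and Kif24, the other kinesin of the set shown, at chr4:41464819-41464948 on the minus strand. All motifs were searched on both strands from 250 bases before to 50 bases from the start and no matches in kinesin promoters overlapped one another; TTCGAA is its own reverse complement and was counted once. TTTGAA was found for 10 of the 11 mitotic kinesins, the exception being Kif18a, and for 4 of the 23 others, Kif1a, Kif26b, Kif27 and Kifc5b. A gene with several annotated starts counted if any of them matched, as Kif1a did at 1 start only. The share of all RefSeq promoters counts promoters, not genes. Of all 32851 RefSeq promoters, 17.9% held it, and among the 16014 of tested genes 13.1%.

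Within 30 bases of the start, a window chosen after the matches had been seen, TTTGAA was present in 8 of 11 mitotic kinesins and 1 of 23 others, against 2.9% of all promoters and 1.92% of those of tested genes. In Kif11 and Kif15 it began 19 bases before the start, and in Kif22 17 bases before. CCAAT was found in 7 of 11 mitotic and 10 of 23 other kinesins, against 37.4% of all promoters. TTCGAA, a variant of the element, was found in none of the 11 mitotic kinesins and in 1 other, Kif24, where it lay 26 bases before the start with 4 CCAAT boxes upstream; 1.56% of all promoters held it. A match describes letters only, and no factor was measured at these sites.

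Of the 43 genes, all 12 mitotic kinesins and 25 of the 30 others were tested, through 69 probes. Testing required a probe to be well above background throughout either group, and the brightest such probe stood for its gene. Levels are on the log2 scale and relative to the 75th percentile of the processed signals of each array, which is 0; they are compared between arrays for 1 probe and never between probes. Kif21a, Kif26b, Kif27, Kif2b and Kif6 were too dim to test, as was Kif4-ps; of these, only Kif21a was well above background on any array (1 MOTS-c array). Kif12 passed only through the MOTS-c group, and 24 other kinesins were well above background on all 6 arrays.

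On the 6 arrays 61.8% to 64.0% of spots were well above background and no spot was saturated. Vehicle arrays 1 and 2 sat on 1 slide, and vehicle array 3 sat with all 3 MOTS-c arrays on the other. With limma and Benjamini-Hochberg adjustment over 22513 genes, 2 genes (0.00888%), neither a kinesin, had an adjusted p under 0.05, and the median difference over all genes was 0.015. Vehicle array 1 stood apart in T cell markers: the mean of 6 was -1.33 from their average on that array, and no lower than -0.11 on any other. Vehicle array 3 stood apart in pancreatic acinar markers: the mean of 5 was 4.53 on that array, and no higher than 1.51 on any other.

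All 12 mitotic kinesins were lower with MOTS-c, and on each of them all 3 MOTS-c arrays lay below all 3 vehicle arrays. That order was seen in 19.1% of all genes tested. The differences ran from -1.27 for Kif22 to -0.71 for Kif20b on the log2 scale, 2.41-fold to 1.64-fold lower, with a median of -1.09. With limma, none of the 12 reached an adjusted p under 0.05 (0.00888% of all genes did); all 12 had an unadjusted p under 0.05 in the lower direction (14.1% of all genes), 8 had one under 0.01 (6.31%) and 8 had an adjusted p under 0.1 (4.5% of all genes, lower). The 12 adjusted p-values lay between 0.0861 and 0.138. An exact permutation test on a single gene cannot go below p = 0.1 with 3 against 3 arrays. The statement on the 12 therefore rests on the model fitted across all genes and on the order of the arrays. The arrays kept nearly the same order in all 12 genes, so these counts are not 12 independent results.

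**Figure D1:**
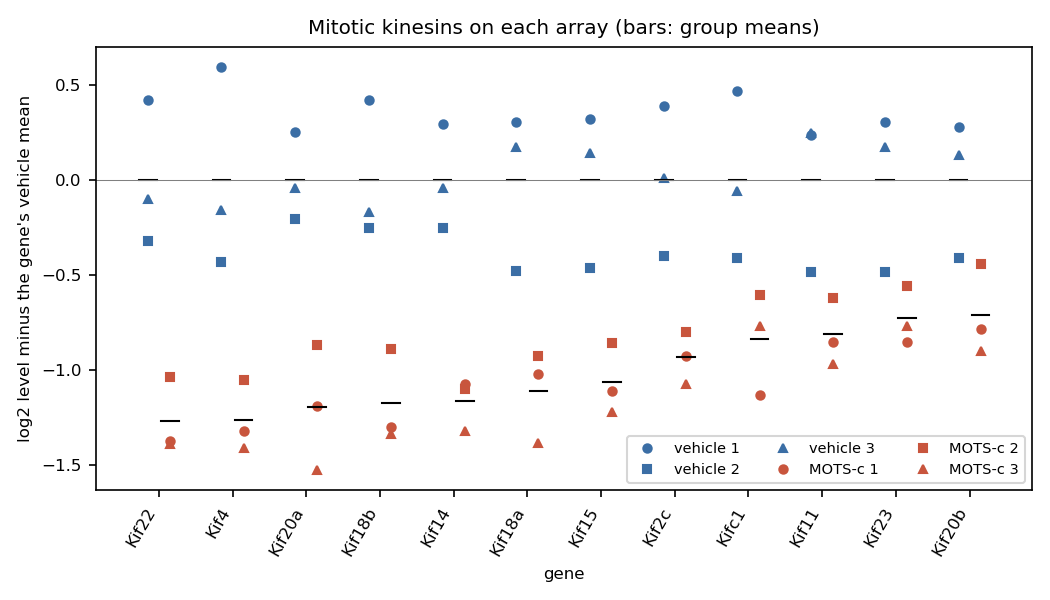
Level of each mitotic kinesin on each array, log2, set against that gene's mean over the 3 vehicle arrays (y axis), for the 12 genes ordered by difference (x axis); blue marks are vehicle, red marks MOTS-c, and black bars the group means. For every gene the red marks lie below the blue ones, with the narrowest gap, 0.035, at Kif20b.

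The chromosome-arm motors had the lowest fitted differences, although those of Kif20a, Kif18b, Kif14, Kif18a and Kif15 lay within a standard error of them. Kif22, also called Kid, pushes chromosome arms away from the poles. It read 4.44, 3.70 and 3.92 on vehicle arrays 1 to 3 and 2.64, 2.98 and 2.62 on MOTS-c arrays 1 to 3. The 2 groups did not overlap, vehicle array 1 was highest and MOTS-c array 3 lowest, and the difference was -1.27 ± 0.23 (SE), with a limma adjusted p of 0.0861. Kif4, a motor that binds condensed chromosomes and works with Prc1 on the midzone, read 1.33, 0.30 and 0.57 on vehicle arrays 1 to 3 and -0.59, -0.32 and -0.68 on MOTS-c arrays 1 to 3. It was again highest on vehicle array 1, did not overlap between groups, and differed by -1.26 ± 0.28 (SE) (limma adjusted p 0.0867).

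Next in role were motors that set microtubule length at kinetochores and at the cell cortex. Kif18a, which dampens chromosome oscillations at the metaphase plate, read 0.77, -0.0074 and 0.64 on vehicle arrays 1 to 3 and -0.56, -0.46 and -0.91 on MOTS-c arrays 1 to 3. The difference was -1.11 ± 0.24 (SE) and the lowest vehicle value, on array 2, lay 0.45 above the highest MOTS-c value. Kif18b, which shortens astral microtubules, read 1.16, 0.49 and 0.57 on vehicle arrays 1 to 3 and -0.56, -0.15 and -0.60 on MOTS-c arrays 1 to 3 and differed by -1.18 ± 0.23 (SE). Kif2c, or MCAK, takes microtubule ends apart and helps correct wrong attachments; it read -0.24, -1.03 and -0.63 on vehicle arrays 1 to 3 and -1.56, -1.43 and -1.71 on MOTS-c arrays 1 to 3. Its groups were separated by 0.40 and differed by -0.94 ± 0.22 (SE), with limma adjusted p-values of 0.0868, 0.0861 and 0.092 for the 3 genes in that order.

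Motors that build the bipolar spindle differed by -1.06 to -0.81. Kif11 (Eg5) slides antiparallel microtubules apart and is required for pole separation; it read 0.22, -0.50 and 0.23 on vehicle arrays 1 to 3 and -0.87, -0.64 and -0.98 on MOTS-c arrays 1 to 3. Vehicle arrays 1 and 3 were almost level and vehicle array 2 lay only 0.14 above the highest MOTS-c array, giving a difference of -0.81 ± 0.23 (SE) and a limma adjusted p of 0.121. Kif15, which can stand in for Kif11, read 0.50, -0.28 and 0.32 on vehicle arrays 1 to 3 and -0.93, -0.68 and -1.04 on MOTS-c arrays 1 to 3 and differed by -1.06 ± 0.23 (SE) (adjusted p 0.0867). Kifc1, a motor that walks the opposite way and gathers microtubules at the poles, read -0.083, -0.96 and -0.61 on vehicle arrays 1 to 3 and -1.68, -1.16 and -1.32 on MOTS-c arrays 1 to 3. It was highest on vehicle array 1, lowest on MOTS-c array 1, and differed by -0.84 ± 0.26 (SE) (adjusted p 0.132).

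The cytokinesis motors held both the most and the least separated genes. Kif14, which works with citron kinase at the midbody, read 1.34, 0.80 and 1.01 on vehicle arrays 1 to 3 and -0.025, -0.053 and -0.27 on MOTS-c arrays 1 to 3. The gap between its groups, 0.82, was the widest of the 12, its difference was -1.17 ± 0.18 (SE), and its unadjusted limma p was 0.000374. Kif20a (Mklp2) brings the chromosomal passenger complex to the midzone and read 3.43, 2.98 and 3.14 on vehicle arrays 1 to 3 and 1.99, 2.31 and 1.65 on MOTS-c arrays 1 to 3; it differed by -1.20 ± 0.21 (SE). Both had an adjusted p of 0.0861. Kif23 (Mklp1) pairs with Racgap1 to form centralspindlin and read 1.68, 0.89 and 1.55 on vehicle arrays 1 to 3 and 0.52, 0.82 and 0.60 on MOTS-c arrays 1 to 3. Its lowest vehicle value lay 0.074 above its highest MOTS-c value, and the difference was -0.73 ± 0.23 (SE). Kif20b read 1.82, 1.14 and 1.68 on vehicle arrays 1 to 3 and 0.76, 1.10 and 0.64 on MOTS-c arrays 1 to 3; vehicle array 2 and MOTS-c array 2 were nearly level, and the difference was -0.71 ± 0.23 (SE). Kif23 and Kif20b both had an adjusted p of 0.138.

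The arrays kept nearly the same order across the mitotic set. Vehicle array 1 was the highest vehicle array in 11 of the 12 genes, Kif11 being the exception, and vehicle array 2 was the lowest in all 12. MOTS-c array 2 was the highest of its group in 11 and MOTS-c array 3 the lowest in 10. Within the slide that held vehicle array 3 and the 3 MOTS-c arrays, the 12 differed by -1.28 to -0.78. Their sign there was fixed, since all 3 MOTS-c arrays lay below vehicle array 3. The other slide held only vehicle arrays. With the slide as a block the differences are therefore the same ones, set against vehicle array 3 alone. That fit gave the 12 limma adjusted p-values between 0.484 and 0.615. Without vehicle array 2, the lowest of its group in all 12, 8 of the 12 had a limma adjusted p under 0.05. These were Kif4, Kif11, Kif14, Kif15, Kif18a, Kif22, Kif23 and Kif2c, among 682 of all 22513 genes. Without any other single array, 0 of the 12 had an adjusted p under 0.05.

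Separate probes gave the same direction. The 12 genes had 24 probes well above background on all 6 arrays. All 24 were lower with MOTS-c, from -1.43 to -0.59, and on 21 of the 24 every MOTS-c array lay below every vehicle array, against 18.9% of all such probes. Kif15 had 4 probes between -1.43 and -1.06. One further Kif14 probe, tested only through the vehicle group and not counted here, was well above background on all vehicle arrays and on no MOTS-c array; it was at least 1.53-fold lower with MOTS-c, a bound taken against the dimmest signal well above background on each MOTS-c array. The 4 probes of Kif23 ran from -1.10 to -0.73.

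**Figure D2:**
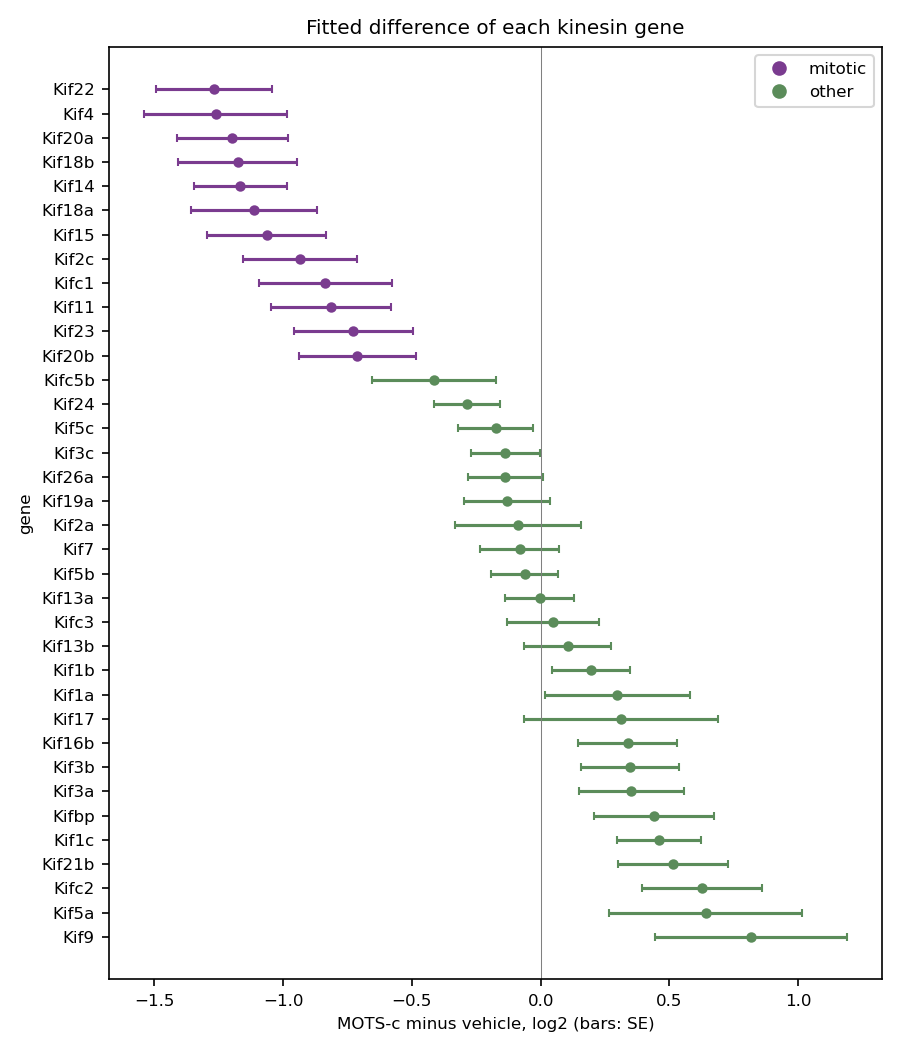
Fitted MOTS-c minus vehicle difference, log2, with its standard error (x axis), for the 12 mitotic and 24 other kinesin genes (y axis, ordered by difference); Kif12 is left out because its vehicle values were not well above background. The mitotic genes fill the low end, from -1.27 to -0.71, and the next gene is Kifc5b at -0.41.

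The other kinesins spread around 0. Kif12, which was tested only through the group where it is high, is left out of the counts that follow. Of the other 24, 10 were lower and 14 higher, with a median of 0.15 against 0.015 over all genes; 11 lay within 0.2 of 0. All 3 MOTS-c arrays lay below the vehicle arrays in 1 gene, Kif24 (19.1% of all genes), and above them in 4, Kif16b, Kif1c, Kif21b and Kifc2 (15.8% of all genes). With limma none had an adjusted p under 0.05, or under 0.1 in the higher direction (1.07% of all genes); 3 had an unadjusted p under 0.05 in the higher direction (10.7% of all genes) and none in the lower. The counts in the higher direction are near the shares of all genes. Vehicle array 1 was the lowest of the vehicle arrays in 13 of the 24 genes other than Kif12.

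Kif12, whose human counterpart is linked to cholestatic liver disease, had the widest difference among the others. Its tested probe was not well above background on any vehicle array and was on all 3 MOTS-c arrays; it read -6.51, -5.93 and -6.28 on vehicle arrays 1 to 3 and -4.02, -3.92 and -2.86 on MOTS-c arrays 1 to 3. The MOTS-c values did not overlap the vehicle values, and the level was at least 3.85-fold higher with MOTS-c, by the same kind of bound. No test is given, because the probe entered the fit only through the group where it is high. With normexp correction, which adds an offset of 50 to the signals, the difference between the group means was 0.72 on the log2 scale, smaller than that bound. A second Kif12 probe, of the same RefSeq transcript, went the other way: it was well above background on vehicle array 1 alone and read -5.02, -5.83 and -5.66 on vehicle arrays 1 to 3 and -6.77, -7.55 and -5.99 on MOTS-c arrays 1 to 3. It was too dim to test, so the values of Kif12 rest on 1 of its 2 probes.

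Among transport motors, Kif1c, which carries vesicles, read -0.16, 0.15 and 0.25 on vehicle arrays 1 to 3 and 0.50, 0.45 and 0.67 on MOTS-c arrays 1 to 3, with no overlap and a difference of 0.46 ± 0.16 (SE) (limma unadjusted p 0.0255, adjusted 0.156). Kif21b, a motor that restrains microtubule growth and is present in lymphocytes, read 3.17, 3.94 and 3.59 on vehicle arrays 1 to 3 and 4.03, 4.03 and 4.20 on MOTS-c arrays 1 to 3. It differed by 0.52 ± 0.21 (SE) (adjusted p 0.197), but its second probe differed by 0.028. Kifc2 read -0.50, 0.31 and 0.27 on vehicle arrays 1 to 3 and 0.65, 0.63 and 0.69 on MOTS-c arrays 1 to 3 and differed by 0.63 ± 0.23 (SE) (adjusted p 0.17). In all 3 genes vehicle array 1 was the lowest array. Without it, Kif21b differed by 0.32 and Kifc2 by 0.36; with the slide as a block Kif1c differed by 0.29 and Kifc2 by 0.39.

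Vehicle array 1 also set the low end of Kif5a and Kif9. Kif5a, a conventional kinesin heavy chain best known from neurons, read -3.63, -2.02 and -2.88 on vehicle arrays 1 to 3 and -2.16, -2.16 and -2.28 on MOTS-c arrays 1 to 3; the groups overlapped, since vehicle array 2 was the highest of the 6, and the difference was 0.64 ± 0.37 (SE) (limma adjusted p 0.308). Without vehicle array 1 it was 0.25, without vehicle array 2 it was 1.05, and with normexp correction 0.35. Kif9, a motor of motile cilia and flagella, read -4.38, -3.53 and -2.79 on vehicle arrays 1 to 3 and -2.82, -2.63 and -2.79 on MOTS-c arrays 1 to 3. Its vehicle array 3 lay level with the MOTS-c arrays, and the difference was 0.82 ± 0.37 (SE) (adjusted p 0.223). It was 0.044 with the slide as a block, which is the difference within slide 2 against vehicle array 3 alone. It was 0.42 with normexp correction and 0.41 without vehicle array 1. Its 3 probes well above background on all 6 arrays were 0.54 to 0.82 higher with MOTS-c, and the fourth was tested only through the MOTS-c group. Of 5 neuron markers 4 were tested, with a median of 0.12, and of 5 ciliated cell markers 2, with a median of -0.074. The ubiquitous heavy chain Kif5b differed by -0.061 and the vesicle motor Kif13a by -0.0041.

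**Figure D3:**
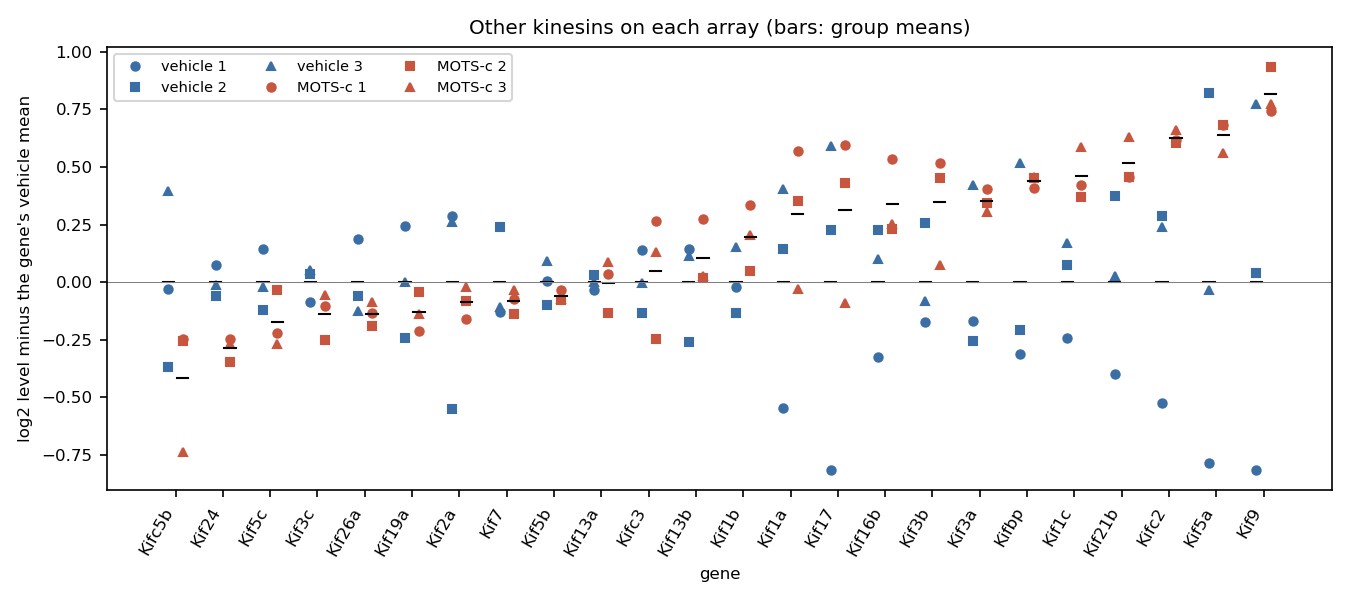
Level of each of 24 other kinesins on each array, log2, set against that gene's mean over the 3 vehicle arrays (y axis), ordered by difference (x axis); marks and bars as in the plot of mitotic kinesins. Vehicle array 1, the blue circle, is the lowest vehicle mark in 13 of the 24 genes, and red and blue marks overlap in most.

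On the lower side, Kif24, which takes ciliary microtubules apart, was the only other kinesin whose groups separated downward. It read -1.28, -1.41 and -1.36 on vehicle arrays 1 to 3 and -1.60, -1.70 and -1.62 on MOTS-c arrays 1 to 3, a difference of -0.29 ± 0.13 (SE) (limma adjusted p 0.217), and its second probe differed by -0.78 ± 0.17 (SE), also with no overlap. Kifc5b, a near copy of Kifc1, read -3.36, -3.71 and -2.94 on vehicle arrays 1 to 3 and -3.59, -3.59 and -4.08 on MOTS-c arrays 1 to 3; the groups overlapped and the difference was -0.41 ± 0.24 (SE) (adjusted p 0.308). It was -0.81 with the slide as a block, -0.24 with normexp correction, -0.22 without vehicle array 3 and -0.25 without MOTS-c array 3. The probes of Kifc1 and Kifc5b share no run longer than 7 of their 60 bases. That compares probe with probe only, and whether a probe of either gene also matches the other gene's transcript was not tested.

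Probes of 5 genes, Kif16b, Kif1b, Kif3c, Kif5b and Kifbp, disagreed in direction. Kif1b, a motor of mitochondria and synaptic vesicles with long and short isoforms, had 5 tested probes from -0.41 to 1.55, with the brightest at 0.20 ± 0.15 (SE). The highest, the probe of transcript NM_008441, read -3.67, -3.43 and -1.89 on vehicle arrays 1 to 3 and -1.63, -1.22 and -1.50 on MOTS-c arrays 1 to 3. Vehicle array 3 lay near the MOTS-c arrays and well above the other vehicle arrays. Kif3c, a subunit of the kinesin that serves cilia and vesicles, had a probe at -0.14 ± 0.14 (SE) and another, of the same transcript, that read -2.79, -2.58 and -1.62 on vehicle arrays 1 to 3 and -1.48, -1.46 and -1.44 on MOTS-c arrays 1 to 3 and differed by 0.87 ± 0.30 (SE). Again vehicle array 3 lay near the MOTS-c arrays. Kifbp read 0.77, 0.88 and 1.60 on vehicle arrays 1 to 3 and 1.49, 1.54 and 1.54 on MOTS-c arrays 1 to 3, a difference of 0.44 ± 0.23 (SE) (limma adjusted p 0.272). Its probe with the lowest difference stood at -0.25 ± 0.17 (SE). In each of these 3 cases vehicle array 3 shared its slide with the MOTS-c arrays, and the part of the slide in these probe differences was not tested. At the gene level, Kif3a and Kifbp turned to -0.071 and -0.078 with the slide as a block; Kifbp was 0.28 without vehicle array 1 and 0.70 without vehicle array 3.

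The remaining tested members gave small differences with overlapping groups, except Kif16b, whose groups touched without overlap (0.0040 apart). Among motors of cilia, Kif3a and Kif3b, the usual motor subunits of anterograde ciliary transport, differed by 0.35 ± 0.20 (SE) and 0.35 ± 0.19 (SE). Kif17, which also works in cilia, differed by 0.31 ± 0.38 (SE), Kif7, a regulator of Hedgehog signalling at the ciliary tip, by -0.082 ± 0.15 (SE), and Kif19a, which limits cilium length, by -0.13 ± 0.17 (SE). The smallest limma adjusted p of these 5 was 0.283, for Kif3b.

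Of the vesicle carriers, Kif1a differed by 0.30 ± 0.28 (SE), Kif13b by 0.11 ± 0.17 (SE) and the endosomal motor Kif16b by 0.34 ± 0.19 (SE). Kif16b read -1.30, -0.75 and -0.87 on vehicle arrays 1 to 3 and -0.44, -0.74 and -0.72 on MOTS-c arrays 1 to 3, and its further probes differed by -0.041 and 0.92. Kif5c, the third conventional heavy chain, differed by -0.17 ± 0.15 (SE). Kif2a, a microtubule depolymerase related to Kif2c, read 1.46, 0.62 and 1.44 on vehicle arrays 1 to 3 and 1.01, 1.09 and 1.15 on MOTS-c arrays 1 to 3; vehicle array 2 was the lowest of the 6 and the difference was -0.088 ± 0.24 (SE). Its other probe differed by -0.48. Kif26a, which lacks motor activity, and Kifc3, a motor at cell junctions, differed by -0.14 ± 0.14 (SE) and 0.049 ± 0.18 (SE). Kif5b read 3.42, 3.32 and 3.51 on vehicle arrays 1 to 3 and 3.38, 3.34 and 3.34 on MOTS-c arrays 1 to 3 on its brightest probe, with overlapping groups, and its 4 probes ran from -0.21 to 0.14.

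**Figure D4:**
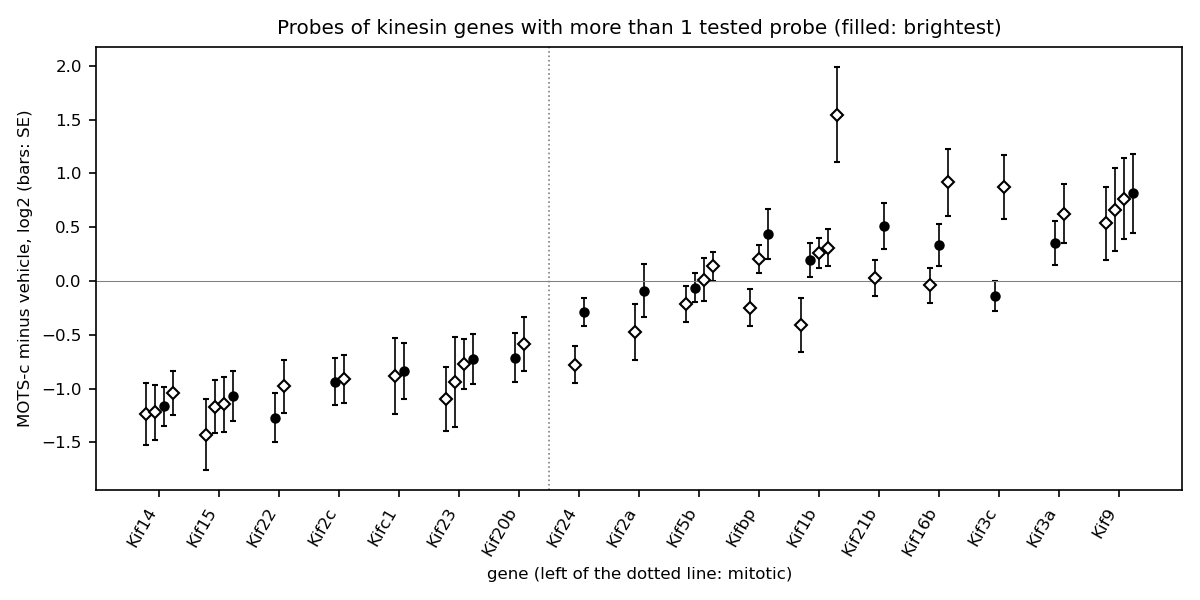
MOTS-c minus vehicle difference, log2, with its standard error (y axis), of each tested probe of the kinesin genes that have more than 1 (x axis, mitotic genes left of the dotted line); filled marks are the brightest probe, which stands for the gene. One probe each of Kif14 and Kif9 was tested through 1 group only. All mitotic probes lie below 0, while probes of Kif1b reach from -0.41 to 1.55.

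The mitotic kinesins moved together with markers of dividing cells. Their mean deviation from each gene's average over the 6 arrays was 0.87, 0.13 and 0.54 on vehicle arrays 1 to 3 and -0.57, -0.30 and -0.66 on MOTS-c arrays 1 to 3. For 6 markers of dividing cells (Mki67, Top2a, Cdk1, Ccnb1, Birc5 and Cdc20) the means were 1.02, 0.29 and 0.48, and -0.70, -0.32 and -0.77. All 6 markers were lower, with a median of -1.17. The kinesin mean minus that of the markers was -0.15, -0.16 and 0.06 on the vehicle arrays and 0.13, 0.02 and 0.11 on the MOTS-c arrays, so the groups overlapped on this difference.

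Markers of red cell precursors moved the same way. All 7 (Epor, Slc4a1, Alas2, Klf1, Gata1, Tfrc and Hemgn) were lower with MOTS-c, with a median of -1.21, and their array means, from 0.10 to 0.93 in vehicle and from -0.67 to -0.43 in MOTS-c, did not overlap. In bulk spleen RNA, fewer cells of a type and less RNA per cell cannot be told apart, and the part of these cells in the lower mitotic kinesin values was not tested. The 6 T cell markers were higher with MOTS-c, with a median of 0.94, and the 6 B cell markers with a median of 0.77. Both means were lowest on vehicle array 1: the B cell means were -1.35, 0.22 and -0.069 on the vehicle arrays, and without vehicle array 1 the difference between groups went from 0.80 to 0.32 for B cell and from 0.91 to 0.47 for T cell markers. The 5 pancreatic acinar markers had a median of -3.21. Their array means were 1.51, -1.57 and 4.53 on vehicle arrays 1 to 3 and ranged from -2.98 to 0.17 in MOTS-c, an overlap. The highest mean was on vehicle array 3, the array on which the slide settings rest. Of the spleen's own markers, 4 of red pulp macrophages had a median of -0.26.

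**Figure D5:**
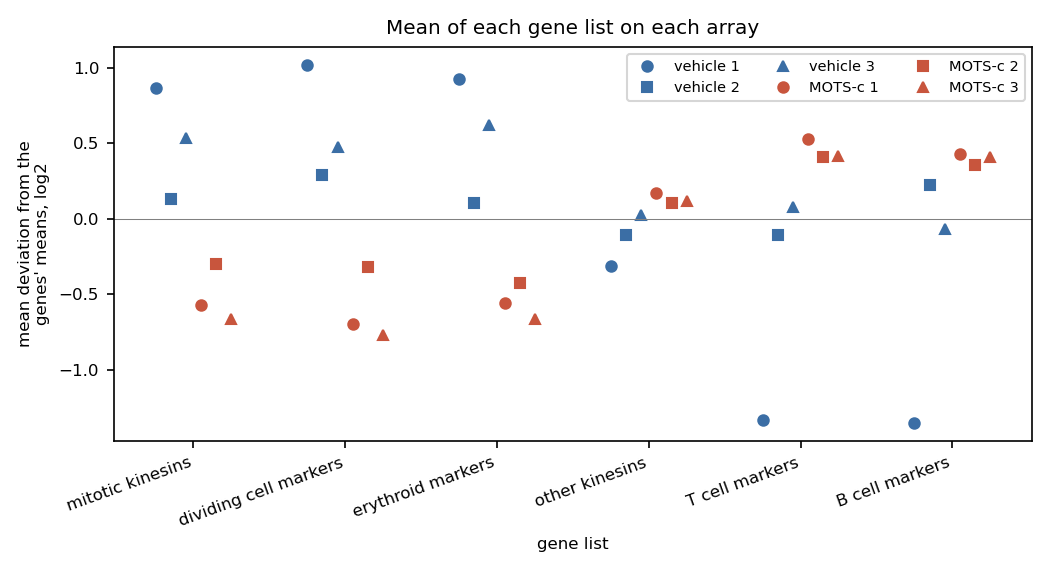
Mean deviation of 6 gene lists from the genes' averages, log2 (y axis), on each array (x axis, by list; blue vehicle, red MOTS-c). Mitotic kinesins, dividing cell markers and erythroid markers are above 0 on vehicle arrays and below 0 on MOTS-c arrays. The other kinesins stay between -0.31 and 0.17, as a mean of 25 genes that includes Kif12, tested only through the MOTS-c group.

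Partners of the mitotic kinesins at the spindle and midzone showed the same direction. In a list of 18, 17 were lower, with a median of -1.07, and 16 lay below every vehicle array (19.1% of all genes did). Birc5, a passenger complex subunit that is also among the dividing cell markers, differed by -1.16 ± 0.21 (SE), Cdca8, another, by -1.27 ± 0.23, the spindle factor Tacc3 by -1.35 ± 0.27 and Racgap1, the partner of Kif23, by -1.08 ± 0.20. Cenpe, the kinetochore kinesin of this list, read 4.53, 3.79 and 4.61 on vehicle arrays 1 to 3 and 3.30, 3.59 and 3.04 on MOTS-c arrays 1 to 3 and differed by -0.998 ± 0.26 (SE; limma adjusted p 0.106). Kif28, also outside the rule, differed by -0.033. Mapre1 and Numa1, at -0.034 and 0.20, were the only list members not below the vehicle arrays.

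Adaptors and light chains of the transport kinesins had a median of 0.15 over 14 tested, 4 lower and 10 higher. Trak2, which ties kinesin to mitochondria, was the exception at -1.39 ± 0.30 (SE; limma adjusted p 0.0867), while Klc2, a light chain, stood at 0.67 ± 0.21 and Plekhm2, a lysosomal adaptor, at 0.52 ± 0.20. The 19 subunits and partners of cytoplasmic dynein and dynactin, motors of the opposite direction, had a median of -0.10, with Dctn6 at -1.14 ± 0.22, Nde1 at -0.67 ± 0.17 and Dctn2 at -0.41 ± 0.14. Tubulins, which form the track itself, had a median of -0.21 over 14; Tubb4b stood at -0.96 ± 0.18, Tuba1c at -0.88 ± 0.19, Tuba1b at -0.79 ± 0.18 and Tubb5 at -0.88 ± 0.23. With limma, none of these 3 lists held a gene with an adjusted p under 0.05; at an unadjusted p under 0.05 1 of 14 adaptors, 3 of 19 dynein or dynactin genes and 6 of 14 tubulins were lower (14.1% of all genes) and 2 adaptors higher (10.7%), while no dynein, dynactin or tubulin gene was higher.

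The authors' deposited table gives a signed fold and a p-value per probe from their quantile normalized values. By the probe that stands for each gene, the 12 mitotic kinesins were all lower there, with signed folds from -2.39 to -1.59. Over all probes of these genes in that table, signed folds ran from -2.75 to -1.53. By the probe that stands for each gene, 8 of the 12 had a p-value under 0.05 in the authors' deposited table, 7 with a fold of 2 or more. The shares of all its probes, lower, were 7.9% and 2.18%, counted over probes and not genes. Of the 24 other kinesins in the authors' deposited table, by the same choice of probe, 3 had a p-value under 0.05, 2 of them lower. Further probes under 0.05 in that table were those of Kif1b, Kif5b and Kifbp, which were higher, and of Kif24, which was lower. Among the mitotic kinesins the smallest adjusted p in the authors' deposited table was 0.370.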

How the data were processed

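Spleen RNA (3 vehicle samples, 3 MOTS-c samples) was hybridised to Agilent arrays in 1 colour, and groups and replicate numbers were taken from the sample titles; for the samples numbered 3 the descriptions give other numbers. Per the file headers, Agilent Feature Extraction 11.0.1.1 gave a background-subtracted processed signal intensity per spot, with no normalization between arrays. The authors' deposited table holds log2 values of the same intensities, quantile normalized between arrays as the values show, and a signed fold per probe (a score), with a p-value and its adjustment, from a test not given in the sources used here. It covers 31692 probes, all well above background on all 6 arrays.

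From the scanner files, outlier spots (97 to 145 an array) and control spots were left out, spots of a probe were averaged, and log2 processed signals, scaled to each array's 75th percentile, were tested with limma 3.58.1 (R 4.3.3), two-sided, with Benjamini-Hochberg adjustment over 22513 genes. The pipeline was tested on simulated data. Probes were named from the deposited table or, for dim ones, by accession or symbol. Promoter sequences are RefSeq's (GRCm38.p6). Where in a transcript each probe lies was not determined, as no genome was used. Normexp correction was planned on the mean signal and run on the median signal, which the files hold.

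The members and gene lists were chosen with earlier results of these data known. All mitotic kinesins are named; of the others, all tested genes enter the counts, with full values for the 8 with the largest absolute difference and the 3 with the smallest p, and with both differences for genes whose probes disagree. Array values of Kif24 and Kif2a are given besides, chosen after their values were seen. Of each other list up to 4 genes with the smallest p are named; Mapre1, Numa1, Cenpe and Kif28 are named besides these, chosen after their values were seen. One erythroid marker is not reported here and was left out of its list. The number of arrays limits the precision. Samples with the same number did not deviate together: the correlations of their deviations were -0.17, 0.03 and -0.07.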

Additional observations from a re-analysis of the deposited data

How the results depend on the processing

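The 12 mitotic kinesins were lower in every setting run. Every MOTS-c array used lay below every vehicle array used in all 12, or in 11 when probes of a gene were averaged. With arrays left out, including within slide 2, that order followed from the main one. The block and filter settings compared the same values of these genes. Only normexp correction, quantile normalization, the authors' values and the mean of a gene's probes could change the order. Leaving out 1 array at a time moved the median of the 12 between -1.29 and -0.93, and their count of 12 could not fall. The count of all genes at an adjusted p under 0.05 was 2, and it was 0 with normexp correction, with the authors' normalized values, with the filter of all 6 arrays, with no filter, within slide 2 and with the replicate block, and 1 with the slide as a block; leaving out 1 array gave 0 to 682. Over the 25 tested genes, Kif12 included, the other kinesins' median was 0.20 (0.15 without Kif12). It became 0.074 with normexp and -0.0098 within slide 2, Kif12 still included. With slide as a block the differences are by construction those within slide 2, against vehicle array 3 alone. The other kinesins' median is then the same. Leaving out 1 array gave 0.12 to 0.27. Their count below every vehicle array was 1 of 25, with 19.1% of all genes in that order. It became 4 of 25 with normexp (20.04% of all genes) and 3 of 25 with quantile normalization (16.37%). With the authors' values it was 3 of 24 (16.4% of all genes). It was 9 within slide 2, where vehicle has 1 array and 32.8% of all genes have that order. Leaving out 1 array gave 1 to 6, with 20.14% to 27.27% of all genes in that order. Small differences turned sign: Kif13a to 0.021 with normexp, 0.0033 with quantile normalization, and 0.0022 with the authors' values; Kif5b to 0.11 with quantile normalization and with the authors' values; and Kif3c to 0.37 with the mean of its probes. Under the slide settings, which give 1 and the same difference, Kif7 became 0.028, Kif13b -0.0098, Kif1a -0.11, Kif17 -0.28, Kif3a -0.071 and Kifbp -0.078. Leaving out 1 array moved Kif2a between -0.36 and 0.056 (0.056 without vehicle 1, 0.043 without vehicle 3), Kif7 between -0.15 and 0.038 (the latter without vehicle 2), Kif13a between -0.050 and 0.061 (0.012 without vehicle 2, 0.061 without MOTS-c 2), Kif13b between -0.024 and 0.18 (-0.024 without vehicle 2), Kif17 between -0.095 and 0.61 (-0.095 without vehicle 1) and Kifc3 between -0.059 and 0.20 (-0.019 without vehicle 2, -0.059 without MOTS-c 1). The cause of these shifts was not tested. The replicate numbers did not pair the arrays, and with the replicate block the 12 adjusted p-values lay between 0.134 and 0.220. The settings without Kif12, and of the T and B cell markers without vehicle 1, were added after the data were seen. Signal near background limits Kif12 and the dim kinesins.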
